A study of Mus musculus with 10 samples.

Results

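Genes of ribosome assembly were followed across B cell leukemias and pro-B cells of the mouse. These 48 genes encode proteins that build ribosomal subunits, chiefly in the nucleolus, and were chosen by name, with no measured value in the rule. The list was nevertheless made with earlier results of these data known. All 48 were found on the array by the gene name in the scanner files. They made up 48 of the 14457 genes tested, with 80 probes in all, and each gene is represented by its brightest probe over the 10 arrays. By role, 5 encode abundant nucleolar proteins, 5 encode subunits of RNA polymerase I, 7 encode core proteins of small nucleolar ribonucleoproteins (snoRNPs), 12 act in assembly of the small (40S) subunit and 19 in assembly of the large (60S) subunit. The genes lay on 17 chromosomes, with at most 7 on 1 chromosome, chromosome 11.

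RNA was measured on 10 one-colour Agilent arrays, 2 for each of 5 groups. Of these, 3 were leukemias (B-ALL, a malignancy of B cell precursors), from the lymph nodes of Ebf1+/- Pax5+/- mice (dHet) numbered 686, 713 and 760, for which the labels give no Rag2 status. Ebf1 and Pax5 encode transcription factors needed to enter and keep the B cell lineage. A further group, dHet pro-B, carried both heterozygous alleles and was also labelled Rag2-/-, a loss of the recombinase that rearranges antigen receptor genes. Its c-Kit+ fetal liver cells were cultured for a short term on OP9 stromal feeders. The medium, OptiMEM, held IL-7 at 5 ng/ml and both SCF and Flt3L at 10 ng/ml. Control cells, wt pro-B (Ebf1+/+ Pax5+/+), were Fraction BC cells sorted from bone marrow. The leukemias and the dHet pro-B cells therefore share both heterozygous alleles, and the dHet and wt pro-B cells differ in genotype, Rag2 status, tissue and culture together. Both arrays of a leukemia carry the same mouse number, and whether they came from separate labellings is not stated. For the pro-B groups the labels do not say whether the 2 arrays came from separate animals, cultures or labellings. The dHet arrays differed in sex-linked RNA, as given below, and so did not hold the same RNA. P-values between groups therefore measure in part a spread that may be technical.

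Ribosomes are assembled from ribosomal RNA and ribosomal proteins. RNA polymerase I transcribes the large precursor RNA in the nucleolus, snoRNPs guide its chemical modification, and a long series of helicases, GTPases, scaffold proteins and nucleases cuts and folds it into the precursors of the small and large subunits. Cells that grow and divide rapidly need many ribosomes, and the genes of this pathway are known to be regulated together with growth. Early B cell progenitors proliferate in response to IL-7.

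All 48 genes were well above background on all 10 arrays, and no spot was saturated. Levels are log2 processed signals minus the 75th percentile of the array, so that 0 is that percentile, and a change is a difference of such levels with its standard error (SE). Levels of different genes come from different probes and are not compared. The share of probes well above background was 35.7% on the first array of leukemia 686 and between 42.1% and 52.4% on the others. The first arrays of the leukemias shared slide 1, their second arrays slide 2, and the 4 pro-B arrays slide 3, which was scanned on the same day as slide 2. Leukemias and pro-B cells thus cannot be told apart from their slides, whereas scan day can be held constant by using the second leukemia arrays alone. The B cell progenitor markers Cd79a, Cd79b, Vpreb1, Igll1, Blnk and Dntt were detected on all 10 arrays. In this order they changed by 0.17, -0.98, 0.91, 1.47, -0.86 and -1.09 in leukemias against wt cells. Against dHet cells the changes were 0.10, -0.97, -0.56, -0.33, -1.77 and -0.16. Rag2 was at -0.98 and -0.9987 on the dHet arrays, -1.60 and -1.69 in wt and -3.14 to -2.56 in the leukemias, so its signal was highest in the group labelled Rag2-/-. Its probe lies at chr2:101472445-101472504 (mm9), the labels do not say which part of the gene was deleted, and the signal therefore does not check that label. In bulk RNA, fewer cells of a kind and less RNA per cell cannot be told apart, and a scaled array does not measure the total RNA of a cell.

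Nearly the whole set stood at higher relative levels in the leukemia samples than in either kind of pro-B cell. Against wt pro-B cells 47 of the 48 genes were higher and 0 were lower (limma, adjusted p under 0.05 over 14457 genes), where 31.3% of all genes tested were called higher, 27.5% lower and 58.7% in either direction. No gene was lower at an unadjusted p under 0.05 either. The median change of the 48 genes was 1.79 on the log2 scale, beside 0.06 for all genes tested, and the changes ranged from 0.34 to 3.21. Against dHet pro-B cells 45 of 48 genes were higher and 0 lower, also at an unadjusted p under 0.05, where 21.7% of all genes tested were called higher, 24.4% lower and 46.2% in either direction. Their median change was 2.05, beside -0.06 for all genes. The rise was at least 2-fold in 44 of the 48 genes against wt and in 44 against dHet cells, not all of them the same. Below 2-fold were Polr1d, Noc3l, Ppan and Gnl2 against wt and Polr1d, Npm1, Wdr12 and Polr1c against dHet cells. The 2 comparisons share the leukemia arrays.

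The separation was visible array by array. For 46 genes all 6 leukemia arrays stood above both wt arrays, a pattern shown by 31.9% of all genes tested, and the exceptions were Polr1d and Noc3l. For 46 genes, all but Npm1 and Polr1d, they stood above both dHet arrays, as did 23.9% of all genes. Above all 4 pro-B arrays stood 45 of the 48 genes and 17.8% of all genes. Each mouse on its own gave a median rise of the set over wt pro-B cells, by 1.89 in leukemia 686, 1.56 in 713 and 1.83 in 760. In 43 genes the mean of each of the 3 mice exceeded the wt mean by more than 2-fold, against 14.01% of all genes. Using the second leukemia arrays alone, scanned on the day of the pro-B arrays, 47 genes were higher than in wt cells with a median change of 1.56. In that setting 4081 of all 14457 genes were higher, and their median change was 0.02. Rescaling each array to its median or to probes detected on all arrays moved the median of all genes from 0.06 to 0.63 or -0.30, and the share of all called genes that were higher from 53.2% to 73.63% or 35.06%. These scalings shift all genes alike, so the members' median stood 1.73 above that of all genes under each by construction. It stood 1.27 above in the authors' deposited values, 1.35 with normexp and 1.45 with quantile normalization. Against dHet cells the share of higher among all called genes was 47.06%, 62.45% and 38.06% under them.

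**Figure D1:**
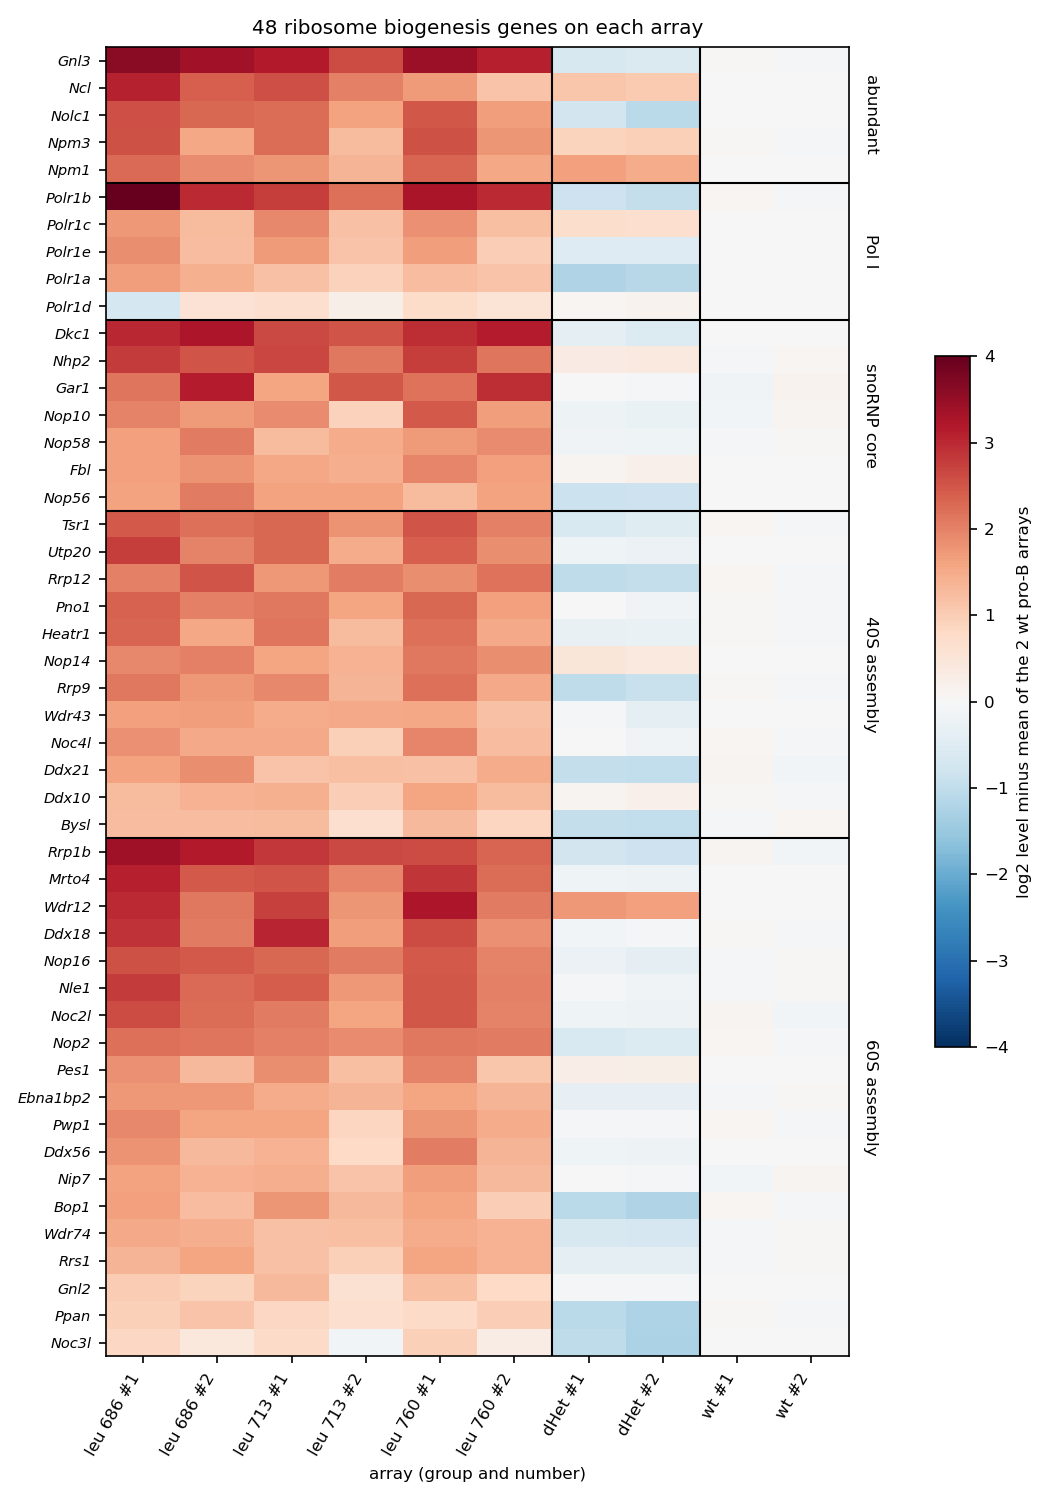
Heat map of the 48 genes (rows, grouped by role and ordered by their change in leukemias against wt) on the 10 arrays (columns), coloured by the log2 level minus the mean of the 2 wt pro-B arrays. The 6 leukemia columns are above wt in nearly every row, whereas the 2 dHet columns hold genes above wt, such as Wdr12, Npm1 and Ncl, and genes below it, such as Polr1a, Ppan and Bop1.

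The 5 abundant nucleolar proteins all rose against wt pro-B cells, with a median change of 2.15. Gnl3 encodes nucleostemin, a nucleolar GTPase of stem and cancer cells. Its level was 3.87 and 3.62 on the arrays of leukemia 686, 3.45 and 2.89 in 713 and 3.70 and 3.37 in 760, against 0.32 and 0.22 in wt and -0.37 and -0.30 in dHet pro-B cells. The leukemia arrays did not overlap with either pro-B group. The change of 3.21 ± 0.19 (SE, 3 mice, 2 wt arrays), 9.28-fold, was the largest of the 48 (limma, adjusted p = 0.0002767). Its probe lies at chr14:31826877-31826936 (mm9, minus strand).

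Ncl encodes nucleolin, a major RNA-binding protein of the nucleolus. Ncl stood at 8.20 and 7.49 in leukemia 686, 7.68 and 7.13 in 713, 6.82 and 6.24 in 760, 6.23 and 6.15 in dHet and 5.09 and 5.14 in wt pro-B cells. All leukemia arrays were above wt, and the lower array of leukemia 760 was close to the dHet arrays. The change was 2.15 ± 0.38 against wt (adjusted p = 0.00471), while the difference of 1.07 ± 0.38 from dHet cells did not pass (adjusted p = 0.0621). Without leukemia 760 that difference was 1.44 with an adjusted p of 0.00453. With arrays scaled to their medians it was 1.29 (adjusted p = 0.01682). It also passed with the array number as a block (adjusted p = 0.004468), where the 2 arrays of a mouse counted as separate samples. Nolc1, a chaperone that carries snoRNPs to the nucleolus, rose by 2.15 against wt and by 3.06 against dHet cells.

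Npm1, nucleophosmin, is an abundant nucleolar histone and RNA chaperone, and Npm3 is its smaller relative. Npm1 rose by 1.86 ± 0.18 and Npm3 by 1.99 ± 0.16 against wt cells. Npm1 was between 7.01 and 7.99 on the 6 leukemia arrays, 7.32 and 7.16 in dHet and 5.68 and 5.64 in wt pro-B cells. The leukemia and dHet ranges overlapped, and their difference of 0.29 ± 0.18 did not pass (adjusted p = 0.2429), but was 0.44 with an adjusted p of 0.03431 without leukemia 713. Npm1 sequences have many processed copies in the mouse genome, which a probe may also detect.

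Of the 5 RNA polymerase I subunits 4 rose against wt, with a median change of 1.43 for the 5. Polr1b encodes the second largest subunit, which forms part of the catalytic centre. Polr1b was 4.17 and 2.73 in leukemia 686, 2.49 and 1.95 in 713, 2.995 and 2.72 in 760, -1.095 and -1.20 in dHet and -0.19 and -0.33 in wt pro-B cells. The first array of leukemia 686 was the highest of the 6, and the groups did not overlap. Its change was 3.10 ± 0.35 against wt, 8.60-fold (adjusted p = 0.001082), and 3.99 ± 0.35 against dHet cells, 15.9-fold, the largest of the 48 in that comparison. The probe lies at chr2:128951870-128951929 (mm9, plus strand).

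Polr1c and Polr1d encode subunits shared by RNA polymerases I and III, and Polr1a and Polr1e encode the largest subunit and a subunit of the initiation module. Polr1c was 4.79 and 4.33 in leukemia 686, 4.98 and 4.24 in 713, 4.87 and 4.26 in 760, 3.76 and 3.72 in dHet and 3.03 and 3.09 in wt pro-B cells. All leukemia arrays lay above the dHet arrays and these above the wt arrays. Its rise over wt was 1.52 ± 0.11, and the difference between dHet and wt cells did not pass (adjusted p = 0.1447). Polr1e rose by 1.43 and Polr1a by 1.26 against wt.

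Polr1d was the single member that did not pass against wt. It stood at 1.75 and 3.06 in leukemia 686, 3.14 and 2.70 in 713, 3.19 and 2.995 in 760, 2.54 and 2.61 in dHet and 2.45 and 2.47 in wt pro-B cells. The first array of leukemia 686 lay below both pro-B groups and the other 5 leukemia arrays lay above them. The difference was 0.34 ± 0.22 against wt (adjusted p = 0.2271) and 0.23 ± 0.22 against dHet cells (adjusted p = 0.4281). Without that array, which also had the lowest share of detected probes, the differences were 0.56 (adjusted p = 0.01335) and 0.45 (adjusted p = 0.03789). A dimmer Polr1d probe at chr5:147922229-147922288, downstream of the main one at chr5:147890429-147890488 (mm9, plus strand), gave a rise of 1.78 ± 0.15 against wt (adjusted p = 0.0004755 in a fit over probes). The files pair these probes with different transcripts of the gene.

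The 7 core proteins of snoRNPs all rose against both kinds of pro-B cell, with median changes of 1.78 against wt and 2.14 against dHet cells. Dkc1 encodes dyskerin, the pseudouridine synthase of the box H/ACA particles and of telomerase, and Nhp2, Gar1 and Nop10 are its partners. Dkc1 was 1.30 and 1.52 in leukemia 686, 0.91 and 0.78 in 713, 1.23 and 1.42 in 760, -2.07 and -2.26 in dHet and -1.70 and -1.74 in wt pro-B cells. The smallest leukemia value was well above the largest pro-B value. Dkc1 rose by 2.91 ± 0.20 against wt, 7.54-fold (adjusted p = 0.0003291), and its probe lies at chrX:72354473-72354532 (mm9, plus strand).

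Nhp2 stood at 5.67 and 5.37 in leukemia 686, 5.55 and 4.98 in 713, 5.63 and 5.01 in 760, 3.21 and 3.25 in dHet and 2.78 and 2.96 in wt pro-B cells. Its rise against wt was 2.50 ± 0.14 (adjusted p = 0.0002454), larger than the spread between the 3 mice. Gar1 rose by 2.42 and Nop10 by 1.78. The box C/D proteins are the methyltransferase fibrillarin (Fbl) and its scaffolds Nop56 and Nop58, which rose by 1.68, 1.63 and 1.68 against wt.

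All 12 genes of 40S assembly rose against both kinds of pro-B cell, with median changes of 1.81 and 2.10. Tsr1 encodes a GTPase-like factor of late 40S maturation. Tsr1 was 2.30 and 2.05 in leukemia 686, 2.14 and 1.66 in 713, 2.37 and 1.87 in 760, -0.75 and -0.61 in dHet and -0.07 and -0.21 in wt pro-B cells. The change against wt was 2.21 ± 0.14, 4.62-fold (adjusted p = 0.0002977). On every slide the leukemias lay above all pro-B arrays.

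Utp20 encodes a large scaffold of the small subunit processome. It was 2.90 and 2.11 in leukemia 686, 2.42 and 1.62 in 713, 2.54 and 1.996 in 760, -0.05 and -0.08 in dHet and 0.12 and 0.15 in wt pro-B cells, a rise of 2.13 ± 0.17. Each first leukemia array was above the second, and all 6 were above the pro-B arrays. Rrp12, which helps export both pre-subunits, was 0.19 and 0.68 in leukemia 686, -0.10 and 0.23 in 713, 0.04 and 0.33 in 760, -2.85 and -2.78 in dHet and -1.76 and -1.90 in wt pro-B cells. The leukemia arrays did not overlap with either pro-B group. Rrp12 rose by 2.06 ± 0.15 over wt and 3.05 ± 0.15 over dHet cells.

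The other 9 genes of this group rose by 1.09 to 2.002 against wt. They are the processome components Heatr1 (1.84), Nop14 (1.81), Noc4l (1.504), Wdr43 (1.51) and Rrp9 (1.80), the helicases Ddx21 (1.42) and Ddx10 (1.32), and the late factors Pno1 (2.002) and Bysl (1.09). The smallest of these rises, that of Bysl, was still 2.13-fold.

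All 19 genes of 60S assembly rose against wt and against dHet pro-B cells, with median changes of 1.54 and 2.03. Rrp1b, which encodes a nucleolar protein that binds chromatin and ribosomal RNA precursors, was 2.08 and 1.86 in leukemia 686, 1.52 and 1.35 in 713, 1.30 and 1.03 in 760, -2.03 and -2.14 in dHet and -1.19 and -1.42 in wt pro-B cells. The rise of 2.83 ± 0.25 against wt was 7.10-fold (adjusted p = 0.0005789) and that of 3.61 ± 0.25 against dHet cells was 12.2-fold. The probe of Rrp1b lies at chr17:32193829-32193888 (mm9, plus strand).

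Mrto4 encodes a relative of the stalk protein P0 that holds its place during assembly. Mrto4 was 3.88 and 3.22 in leukemia 686, 3.29 and 2.74 in 713, 3.63 and 2.997 in 760, 0.61 and 0.57 in dHet and 0.80 and 0.75 in wt pro-B cells. Its rise of 2.52 ± 0.18 against wt was 5.73-fold (adjusted p = 0.0003517), without overlap of the arrays.

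Pes1, Bop1 and Wdr12 form the PeBoW complex, which is needed to process the RNA of the large subunit. Wdr12 was 4.19 and 3.30 in leukemia 686, 3.94 and 2.98 in 713, 4.45 and 3.29 in 760, 2.93 and 2.83 in dHet and 1.18 and 1.22 in wt pro-B cells. Its levels rose from wt over dHet to leukemia, and the second leukemia arrays were only slightly above dHet. Wdr12 differed from wt by 2.49 ± 0.16 and from dHet by 0.81 ± 0.16 (adjusted p = 0.00967). The latter was 0.31 with an adjusted p of 0.1393 for the second leukemia arrays alone, and lost its call when either dHet array was left out (0.76 or 0.86, adjusted p = 0.07464 or 0.05855). Its partners rose by 1.55 (Pes1) and 1.41 (Bop1) against wt and by 1.29 and 2.55 against dHet cells. In dHet against wt cells the main probes of Wdr12, Pes1 and Bop1 changed by 1.68, 0.26 and -1.14. A second Pes1 probe fell there, from 1.09 and 1.13 in wt to -0.08 and 0.08 in dHet cells. The calls of Wdr12 and Bop1 in that comparison depended on single pro-B arrays, as given below.

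Among the remaining 60S factors, Ddx18 (2.35), Nop16 (2.30), Nle1 (2.29), Noc2l (2.16) and Nop2 (2.07) rose more than 4-fold against wt. Ddx18 is a helicase, Nle1 an adaptor for the remodelling enzyme Mdn1 and Nop2 an RNA methyltransferase. Ebna1bp2, Pwp1, Ddx56, Nip7, Wdr74 and Rrs1 rose by 1.34 to 1.54. The smallest changes were those of the GTPase Gnl2 (0.97), Ppan (0.89) and Noc3l (0.52).

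Noc3l, the partner of Noc2l in an early 60S complex, was 0.07 and -0.32 in leukemia 686, 0.01 and -0.86 in 713, 0.19 and -0.47 in 760, -1.78 and -2.02 in dHet and -0.75 and -0.76 in wt pro-B cells. The second array of leukemia 713 lay below both wt arrays. The rise of 0.52 ± 0.15 against wt (adjusted p = 0.02895) did not pass when mouse 686 or 760 or any 1 pro-B array was left out (changes of 0.47 to 0.53, adjusted p from 0.0504 to 0.1249), or with the second leukemia arrays alone (0.21, adjusted p = 0.4028). Against dHet cells its rise was 1.67 ± 0.15.

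The 5 largest rises over dHet pro-B cells were those of Polr1b (3.99), Gnl3 (3.82), Rrp1b (3.61), Dkc1 (3.36) and Nolc1 (3.06). Ncl, Npm1 and Polr1d did not pass there. By role, 3 of 5 abundant nucleolar proteins, 4 of 5 polymerase subunits and all of the 7 snoRNP, 12 small-subunit and 19 large-subunit genes rose over dHet cells. Averaging its probes ended the call of Ddx56 (0.64, adjusted p = 0.05184). With slide as a random block Wdr12, Gnl2, Npm3 and Polr1c lost theirs (adjusted p = 0.18, 0.05254, 0.07881 and 0.07759).

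**Figure D2:**
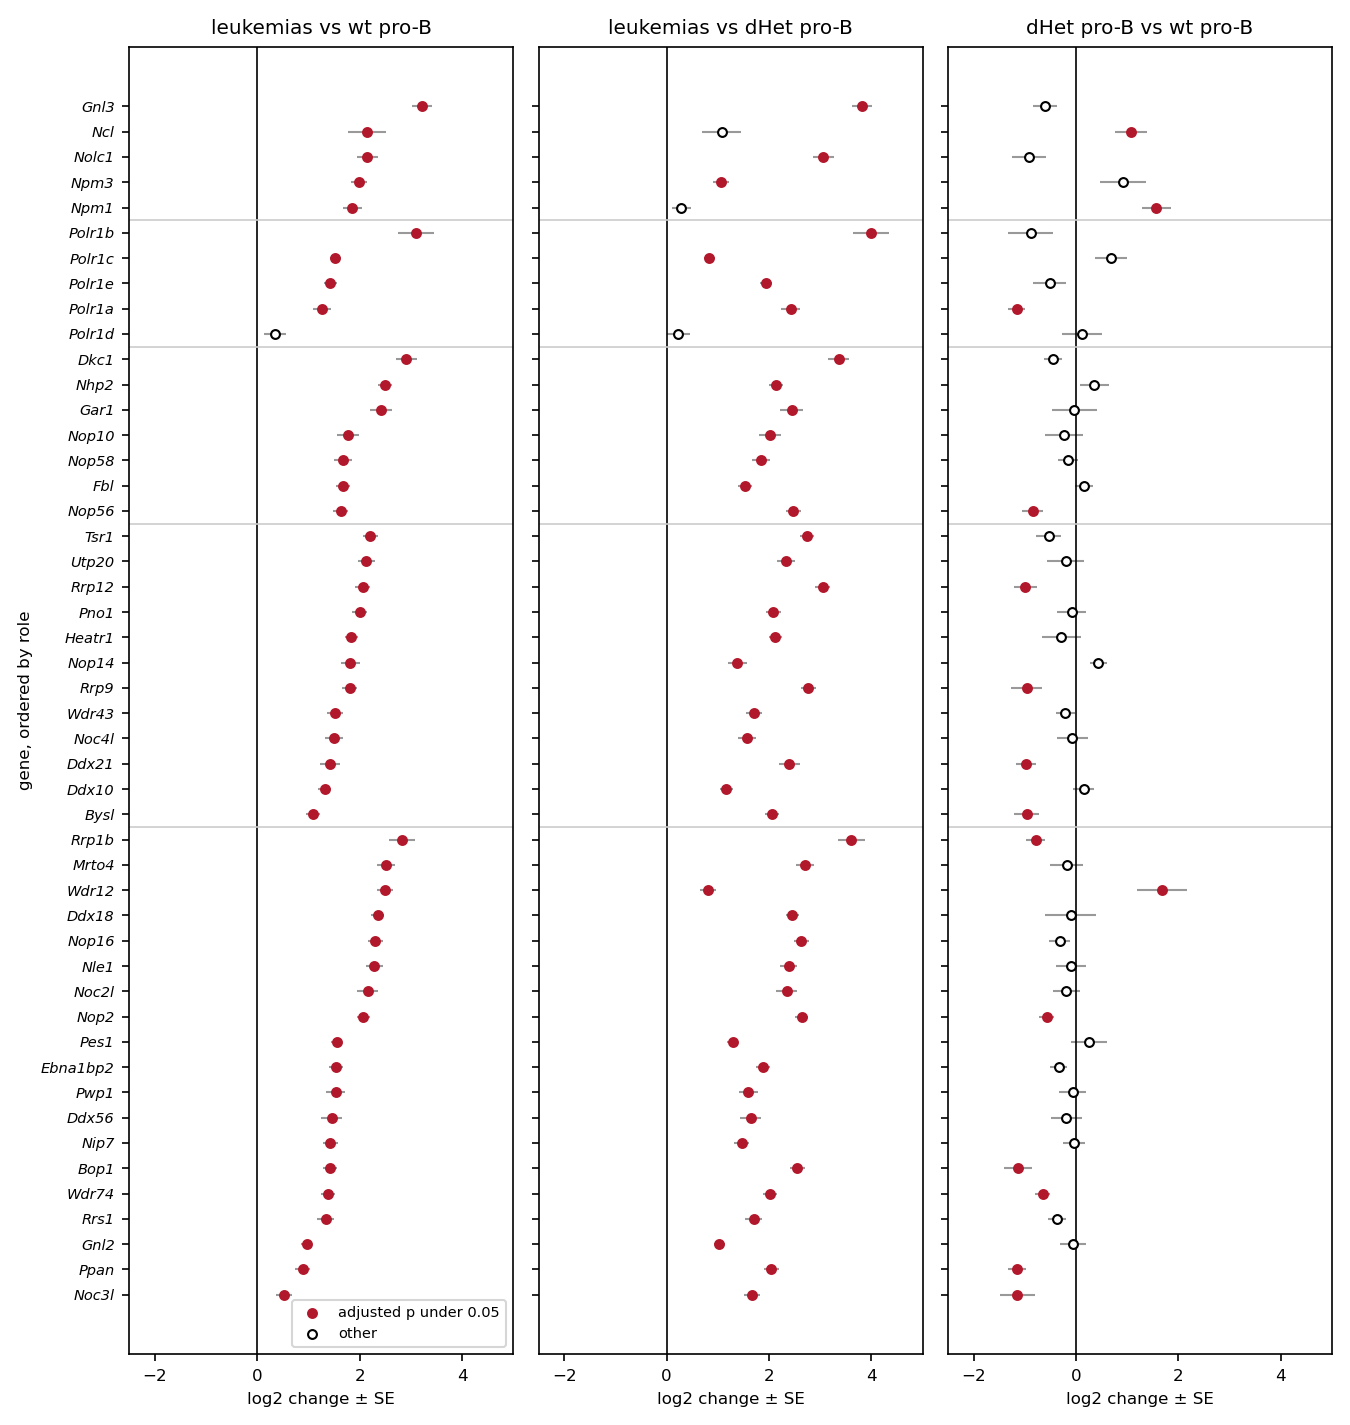
Log2 changes with SE (horizontal axis) of the 48 genes (rows, grouped by role) in leukemias against wt pro-B, leukemias against dHet pro-B and dHet against wt pro-B. Filled points passed an adjusted p of 0.05 by limma. In the left and middle panels every point lies above 0 and only Polr1d, or Ncl, Npm1 and Polr1d, are open, whereas the right panel holds 3 filled points above 0 and 12 below it.

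Between the kinds of pro-B cell the set moved little and in both directions. In dHet against wt pro-B cells 3 genes were higher (16.7% of all genes tested were called higher) and 12 were lower (14.9% were called lower, 31.6% in either direction), and 33 did not pass. The median change was -0.20 under the main scaling, beside 0.13 for all genes. It turned to 0.15 when arrays were scaled to their medians, beside 0.48 for all genes. That scaling left 3 genes higher and 0 lower, beside 2683 and 1467 of all 14457 genes. Scaled to the probes detected on all arrays, 3 were higher and 20 lower, beside 1871 and 2825 of all genes. The median was then -0.43, beside -0.10 for all genes. The members' median differed from that of all genes by -0.33 under the 3 scalings, by construction. The share of higher among all called genes was 52.93%, 64.65% and 39.84% under the 3 scalings. With 1 of the 4 arrays left out, whichever it was, most of these calls were lost, as given below. The members' median was then -0.24 to -0.18, beside 0.1 to 0.16 for all genes.

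The genes that were higher in dHet cells were Wdr12 (1.68 ± 0.48, adjusted p = 0.03636), Npm1 (1.57 ± 0.29, adjusted p = 0.006657) and Ncl (1.07 ± 0.32, adjusted p = 0.03913). In each of them both dHet arrays lay above both wt arrays, as in 11 members and 48.5% of all genes. The 5 largest falls were those of Polr1a, Ppan, Noc3l, Bop1 and Rrp12, and both dHet arrays lay below both wt arrays in 31 members and 35.5% of all genes. Polr1a was 0.84 and 0.93 in dHet and 2.07 and 2.02 in wt cells, a change of -1.16 ± 0.17 (adjusted p = 0.002778). Ppan, a 60S factor of the Brix family, was 3.13 and 2.96 in dHet and 4.25 and 4.14 in wt cells, a change of -1.15 ± 0.18. Noc3l changed by -1.15 ± 0.34, Bop1 by -1.14 ± 0.27 and Rrp12 by -0.99 ± 0.23. The other called falls, of Ddx21, Rrp9, Bysl, Nop56, Rrp1b, Wdr74 and Nop2, lay between -0.98 and -0.57. In the authors' deposited values the falls of Noc3l, Rrp12 and Rrp1b were smaller, at -0.52, -0.30 and -0.27, and did not pass (adjusted p = 0.1913, 0.2976 and 0.2079), nor did that of Bysl (-0.94, adjusted p = 0.06685). With any 1 of the 4 pro-B arrays left out, Polr1a and Ppan still passed. Ddx21 then passed only without the second wt array, and the other 9 did not pass. Of the genes that were higher, Npm1 lost its call without the first dHet array (1.49, adjusted p = 0.05139), and Wdr12 and Ncl lost theirs without any 1 array. These 12 genes rose in the leukemias over both groups, by 0.52 to 2.83 against wt and 1.67 to 3.61 against dHet cells.

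Most members with further probes showed the same direction on them. Beside the main probes, 28 other kept probes represented 22 of the genes. Against wt, 23 of the 28 were higher and 0 lower, and against dHet cells 20 were higher and 0 lower. The 5 that did not pass against wt were second probes of Polr1a (-1.05), Ddx10 (-0.28), Ddx56 (-0.06) and Pes1 (0.03) and 1 of 4 Ncl probes (0.77). For Polr1a the average of its probes gave a change of 0.11 against wt (adjusted p = 0.8461), so its rise there rests on the brighter probe. The same average ended its call in dHet against wt cells (-1.31, adjusted p = 0.05098). In the comparison of pro-B cells a second Pes1 probe, at chr11:3879895-3879954 (mm9, plus strand), was 1.09 and 1.13 in wt and -0.08 and 0.08 in dHet cells, a change of -1.10 ± 0.18 (adjusted p = 0.005124). The main Pes1 probe changed by 0.26 there, and probes of a gene can read different transcripts.

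The wider pathway moved in the same direction with smaller changes. Of 124 measured genes of a list of 128 other ribosome biogenesis factors, 95 were higher and 3 lower than in wt cells (median 0.96). Against dHet cells 93 were higher and 3 lower, with a median of 0.996. Of all genes tested, 31.3% were called higher and 27.5% lower against wt, and 21.7% and 24.4% against dHet cells. All 14 genes of the RNA exosome, the nuclease that trims precursor RNA, rose against wt, led by Exosc7 (2.74), and 11 of 14 rose against dHet cells. The largest rises over wt in the other groups were those of Rcl1 (2.43) in small-subunit assembly, Urb2 (1.97) in large-subunit assembly, Polr2f (2.17), a subunit shared by RNA polymerases I, II and III, and Naf1 (1.79), an assembly factor of box H/ACA particles. Against dHet cells they were Nat10 (2.76), the large-subunit remodelling enzyme Mdn1 (2.49), Exosc7 (2.27), Polr2l (1.96) and Shq1 (1.66). Among the few that were lower in the leukemias were Ttf1, the terminator factor of RNA polymerase I (-0.79 against wt, -0.94 against dHet), and Nop53 (-0.96 and -1.35). In dHet against wt cells 13 of the 124 were lower and 0 higher. The largest falls were in Mdn1 (-1.52) and Ltv1 (-1.41), and in Taf1a (-0.97) among the genes of the polymerase I machinery. After scaling to array medians 3 were higher and 2 lower, beside 2683 and 1467 of all 14457 genes. The list's median then turned from -0.11 to 0.25, while that of all genes moved from 0.13 to 0.48.

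Genes of the ribosome's own proteins followed another order of the groups. Of 82 cytosolic ribosomal protein genes, 45 were higher and 5 lower in leukemias than in wt cells, with a median of 0.48, and 2 were higher and 56 lower than in dHet cells, with a median of -0.53. In dHet against wt cells 64 were higher and 1 lower, with a median of 1.01. Rpl14 had the largest rise over wt in the leukemias (1.80), and Rpl7l1, whose protein acts in assembly, the largest over dHet cells (0.95). The largest falls were those of the paralogs Rps4l against wt and Rpl3l against dHet cells. Ribosomal protein genes have many processed copies and near-identical probes, so single values are uncertain. The directions of the 3 medians held under each scaling, but quantile normalization reduced them to 0.21, -0.05 and 0.18, with 13 genes lower than in dHet cells and 12 higher in dHet than in wt cells. Mitochondrial ribosomal protein genes, of which 78 were measured, were higher in 68 and lower in 1 against wt (median 0.88), higher in 47 and lower in 3 against dHet cells (0.60), and higher in 12 and lower in 0 in dHet against wt cells (0.36). Mrpl12 (2.47) and Mrps18b (2.14) led their rises over wt and over dHet cells, and Mrpl23 (1.35) led in dHet against wt. Mrpl49 was lower in the leukemias than in either (-0.78 and -0.46). The 12 mitochondrial genes called higher in dHet against wt cells were 15.4% of the list, beside 16.7% of all genes tested.

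**Figure D3:**
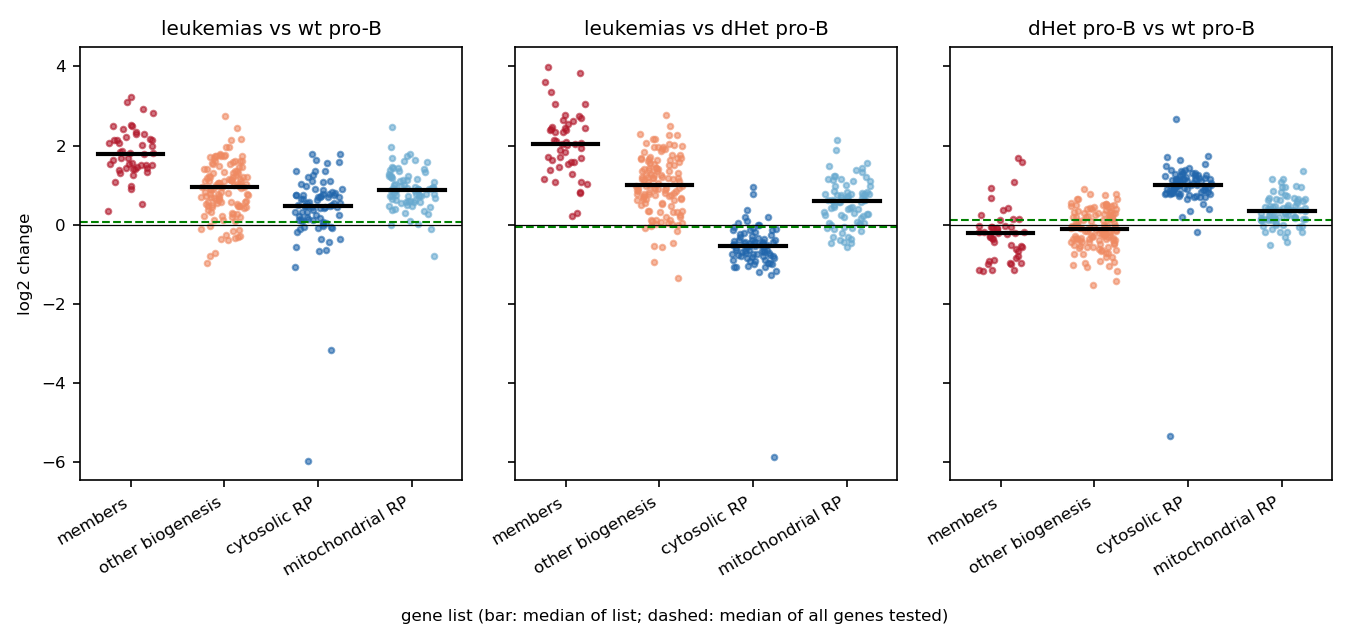
Log2 changes (vertical axis) of single genes (points) in 4 gene lists for the 3 comparisons, with a bar at the list's median and a dashed line at the median of all genes tested. All members and most other biogenesis genes lie above 0 in both leukemia comparisons, whereas cytosolic ribosomal proteins (RP) lie mostly below 0 against dHet and above 0 in dHet against wt pro-B cells.

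Between the leukemias the members tended to be highest in 686 and lowest in 713, and the number of calls depended on whether the slide entered the fit. Taking the means of the 2 arrays, 36 of 48 genes were highest in leukemia 686 and 38 were lowest in 713, where those mice were highest or lowest for 28.59% and 37.07% of all genes. Leukemia 686 stood above the other 2 in 45 members and 49.89% of all genes with a median of 0.23, which was 0.12 without its first array and 0.13 without the second of 760, but 0 genes passed in either direction (limma over 10 arrays; 1.74% of all genes tested were called higher, 2.52% lower and 4.27% in either direction), 5 being higher and 0 lower at an unadjusted p under 0.05. Scaled to array medians, its median turned to -0.13, relative to -0.36 for all genes, and the share of higher among all called genes went from 40.84% to 22.32%. Leukemia 713 stood below the others in 43 members and 50.02% of all genes with a median of -0.25. Without its second array the median was -0.05 with 19 members above 0, without its first -0.46, and without the first of 760 -0.15. Again 0 genes passed in either direction, where 8.87% of all genes were called higher, 6.47% lower and 15.3% in either direction. At an unadjusted p under 0.05, 0 were higher and 5 lower. In 760 the median was 0.04, 1 gene, Ncl, was lower and 0 were higher (6.63% of all genes were called lower and 5.34% higher). Unadjusted, 2 were lower and 0 higher.

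The first arrays of the leukemias gave higher values than the second in 34, 42 and 41 of the 48 genes for mice 686, 713 and 760, and in 55.82%, 65.6% and 62.52% of all genes. With slide as a block, which among the leukemias is also the scan day, 9 genes were higher in 686 (6.29% of all genes tested), led by Ncl (0.88), Rrp1b (0.67) and Ddx21 (0.48), and 18 were lower in 713 (15.6% of all genes), led by Polr1b (-0.93), Gar1 (-0.57) and Nop10 (-0.55). In 760, Ncl and Rrp1b were lower, where 13.3% of all genes were. With the array number as a block in all 5 groups, which pairs the leukemia arrays in the same way, Rrp1b was higher in 686 (2.48% of all genes were), 0 members were called in 713 (7.97% of all genes were lower), and Ncl and Rrp1b were lower in 760 (7.95% were lower). On slide 1 alone, 36 genes of leukemia 686 stood above the mean of the other mice with a median of 0.16, against 43.16% of all genes and a median of -0.07. On slide 2 all 48 did with a median of 0.37, against 54.11% of all genes and a median of 0.03. For 713 the medians were -0.23 and -0.34 on the slides, and for 760 they were 0.04 and 0.02.

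Ncl was lower in leukemia 760 than in the other mice, with a log2 change of -1.095 ± 0.274 (adjusted p = 0.04395), of -1.12 on slide 1 and -1.07 on slide 2. With slide as a block its adjusted p was 0.0005257, and in the authors' deposited values the change was -1.01 (adjusted p = 0.009988). These p-values too measure the spread between arrays, as 760 is 1 mouse. The Ncl levels of 6.82 and 6.24 in 760 lay below all 4 arrays of leukemias 686 and 713, whose lowest value was 7.13. In the fit without a block, leaving out the first array of any mouse or the second of 760 ended the call, with changes between -1.38 and -0.81 and adjusted p-values between 0.06707 and 0.2227, as did scaling to array medians (-0.85, adjusted p = 0.1616) and keeping all dim probes (adjusted p = 0.1698).

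**Figure D4:**
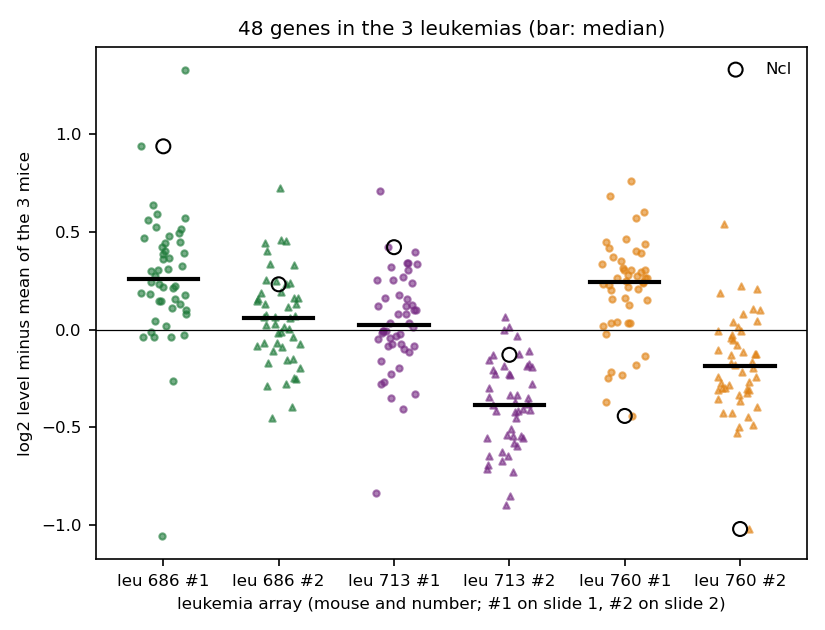
Log2 level of each of the 48 genes on each leukemia array minus its mean over the 3 mice (points; circles for first and triangles for second arrays), with a bar at the median of an array and Ncl ringed. The medians of 713 lie below those of 686 on each slide, first arrays lie above second arrays of the same mouse, and Ncl is low on both arrays of 760.

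Markers of dividing cells moved with part of this pattern. Of 13 markers, all detected on every array, 12 were higher and 0 lower in leukemias than in wt cells, led by Cdk1 (2.82), 4 were higher and 1 lower than in dHet cells, led by Mcm2 (1.19) and Rrm2 (-0.55), and 8 were higher and 0 lower in dHet than in wt cells, led by Ccnb1 (2.02). Their summed linear level was 287.8 to 432.5 in the leukemias, 262.5 to 275.8 in dHet and 143.5 to 171.5 in wt pro-B cells. The part of dividing cells in the members' changes was not tested.

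Markers of other cells differed between the groups and, in part, between mice. Of 8 T cell markers 5 to 7 were detected on a leukemia array, with a summed level of 9.565 to 40.06, against 3.378 to 5.51 in dHet and 2.273 to 2.44 in wt cells, and Cd4 was detected on no array of any group. Myeloid markers (9 measured) summed to 12.27 to 129.5 in the leukemias, 18.59 to 20.89 in dHet and 75.2 to 149.1 in wt cells. Elane was detected nowhere. Of the 8 tested, 6 were higher and 0 lower in 686, where most members were highest, than in the other 2 mice (median 2.93). In 713, 1 was higher and 2 lower (median -0.59), and in 760, 0 were higher and 5 lower (median -2.25). Of all genes tested, 1.74% were called higher in 686 and 6.63% lower in 760. Of 8 stromal markers the summed level was 1.124 to 2.959, 3.152 to 3.287 and 3.692 to 4.913, with Col1a1, Pdgfra and Pdgfrb detected on no array. The erythroid gene Hba-a1, a hemoglobin chain, was 2.50 and 0.05 in leukemia 686, 6.42 and 5.72 in 713, 4.90 and 4.02 in 760, -3.80 and -4.84 in dHet and 0.23 and 0.73 in wt pro-B cells. It was thus highest in 713, where most members were lowest, and was not well above background in dHet cells. Alas2, of heme synthesis, was 1.06 and 1.08 in 713 and between -5.49 and -0.79 in the other leukemias. The part of such cells in the members' changes was not tested.

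The genes were also compared for a sequence that the choice did not use, the E-box CACGTG, which basic helix-loop-helix factors bind. CACGTG reads the same on both strands. RefSeq promoters on GRCm38.p6, from 250 bases before to 50 bases after a start site, were found for 42 of the 48 genes and missing for Bop1, Fbl, Gnl2, Npm1, Rrp12 and Rrs1. The motif was in promoters of 7 of the 42 genes (16.7%), against 11.6% of 9749 tested genes with a promoter, 8.09% of all 27025 genes in the table and 18.4% of 103 other biogenesis genes. It was found in 4 of 11 small-subunit and 3 of 16 large-subunit genes and in none of the 15 other members with a promoter. None of the 5 largest rises against wt (Gnl3, Polr1b, Dkc1, Rrp1b and Mrto4) held it. The windows of the 7 genes, chosen after this search, show how near the motif lies to the start site, with the motif in capitals, written in the direction of transcription.
Nop2: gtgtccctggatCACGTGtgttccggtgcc
Pes1: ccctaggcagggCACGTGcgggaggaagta
Wdr43: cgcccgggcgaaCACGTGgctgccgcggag
Nle1: tcggttctcctcCACGTGgggacgcaggat
Tsr1: tcacttggtgcaCACGTGgactgcagaatg
Utp20: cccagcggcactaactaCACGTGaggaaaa
Pno1: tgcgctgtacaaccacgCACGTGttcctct

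On GRCm38.p6 these windows are chr6:125131811-125131840 (plus strand) for Nop2, chr11:3963965-3963994 (plus) for Pes1, chr17:71616220-71616249 (plus) for Wdr43, chr11:82908355-82908384 (minus) for Nle1, chr11:74898092-74898121 (plus) for Tsr1, chr10:88826765-88826794 (minus) for Utp20 and chr11:17211540-17211569 (minus) for Pno1. The first base of the motif lay 60 bases before the start site in Nop2, at offset -60, and 2 bases after it in Pes1, 17 in Wdr43, 23 in Nle1, 24 in Tsr1, 37 in Utp20 and 37 in Pno1. Apart from Nop2, the motifs thus lay in the transcribed first bases of the gene. The 7 genes changed by 1.51 (Wdr43) to 2.29 (Nle1) against wt, with a median of 2.07, and the 35 without the motif had a median of 1.78. These are descriptions of letters in a window, and binding of a factor was not measured.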

How the data were processed

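Total RNA of 10 samples was hybridised as Cy3-labelled cRNA, 1 array each. Per the file headers, the deposited scanner files hold intensity values (processed signal) from Agilent Feature Extraction 10.5.1.1, background-subtracted and detrended within each array, and the submitters' processing notes give 9.1. The authors' deposited value table holds log2 values whose background, centring and floor are not given in the sources used here, with column medians of 6.83 to 6.85, and served as an alternative only.

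The members, lists and rule for named genes were chosen with earlier results of these data known. Spots of a probe were averaged without outliers, log2 transformed and reduced by the array's 75th percentile. A filter kept 22302 of 41174 probes, those detected above background in every array of some group, and the brightest kept probe stood for each of 14457 genes. Probes were named by accession (28223), symbol (5394) or synonym (349) through RefSeq (GRCm38.p6), and 7208 kept the file's name. Probe coordinates are mm9, per the file headers.

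Tests used limma 3.58.1 under R 4.3.3, with p-values adjusted by the Benjamini-Hochberg method over all genes, threshold 0.05. Leukemias were compared with pro-B cells over 7 samples, the mean of the 2 arrays of each mouse and the single pro-B arrays. Other comparisons used all 10 arrays in 5 groups. Fits with a block, also those of leukemias against pro-B cells, did so too, counting the 2 arrays of a mouse as separate samples. The fits were checked on simulated data. Deviations of same-numbered arrays from their group means correlated at 0.443 to 0.633 between leukemias, whose numbers follow slide and scan day, and at -0.03 to 0.08 with pro-B arrays. Named with values on every array were, per role, the 3 largest passing changes against wt (2 in groups of 5 to 7) and those not passing, and elsewhere the 5 largest per direction. The number of arrays limits the precision. Some marker results are not reported here.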

Additional observations from a re-analysis of the deposited data

Results flagged for a closer look

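The fall of Ncl in leukemia 760 was singled out because a test of the difference between mice passed there (-1.095, adjusted p = 0.04395 by limma over 10 arrays). Of the 48 members 1 was called lower (2.08%), a smaller share than the 6.63% of all genes. That p-value measures the spread between arrays of a group. The 3 other Ncl probes gave -1.02 (adjusted p = 0.02554), -0.50 (0.3418) and -0.79 (0.471) in a fit over probes, in which the main probe had an adjusted p of 0.05275. The main probe, at chr1:88247602-88247992 (mm9, minus strand), and the probe that passed, at chr1:88247953-88248012, lie in overlapping spans. Their values on the arrays of 760 were 6.82 and 6.24 and 6.35 and 5.81. On the other leukemia arrays they were 7.13 to 8.20 and 6.75 to 7.44. The other nucleolar chaperone Npm1 differed by 0.12 there and did not pass.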

How the results depend on the processing

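In the settings that kept both arrays of each pro-B group, 46 to 48 members were higher in leukemias than in wt cells and 0 lower. Against dHet pro-B cells 42 to 46 were higher and 0 lower. Of all genes tested, 2959 to 6369 were higher and 1731 to 5482 lower than in wt cells in these settings. Against dHet cells 1871 to 4007 were higher and 1437 to 4820 lower. The median against wt moved to 1.4259 with the percentile over probes detected on all arrays, 2.3563 with array medians, 1.2689 in the authors' table, 1.3513 with normexp and quantile, 1.4174 with quantile normalization, and 1.5636 with scan day as a block or the second leukemia arrays alone. Against dHet cells it moved to 2.2606 with array medians, 1.8003 in the authors' table, 2.2401 with the first leukemia arrays, 1.7624 with normexp, and 1.8866 with scan day as a block or the second arrays. The use of first or second arrays alone was chosen after seeing the data.

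In dHet against wt cells the median was -0.4315 with the detected percentile and 0.1486 (reversed) with array medians. The median of all genes was 0.4813 under the latter, so that of the members stayed below it. The members' median was -0.2721 in the authors' table, -0.2591 with probe means, -0.2897 with normexp and -0.3661 with quantile normalization. It was -0.2393 to -0.1837 leaving out 1 array. Members higher were 1 with no filter (1117 of all 27191 genes) and 6 with slide or scan day as a block (4244 or 4595 of all 14457). Members lower were 20 with the detected percentile (2825 of all 14457 genes) and 0 with array medians (1467). They were 2 with no filter (1279 of all 27191 genes) and 19 with slide or scan day as a block (3224 or 3316 of all 14457). The cause of these shifts was not tested.

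In 686, members higher were 2 with the detected percentile or the authors' table (417 or 358 of all 14457 genes). They were 1 with probe means, normexp, quantile or the replicate block (233 to 364 of all genes) and 9 with slide or scan day as a block (909). In 713, members lower were 2 with the detected percentile or quantile (1288 or 1030 of all genes) and 5 in the authors' table (1275). They were 7 with normexp (1183), 1 with only detected probes (711 of 9558) and 18 with slide or scan day (2255). In 760, 1 was higher with slide or scan day (1820 of all 14457 genes). Lower there were 2 with the detected percentile, the replicate block, slide or scan day (1061 to 1929 of all genes). With array medians or no filter 0 were lower (615 of all 14457 or 494 of all 27191 genes).

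With the replicate number as a block, 47 members were higher than wt and 46 higher than dHet, where 4961 and 3730 of all 14457 genes were. In dHet against wt cells 3 were higher and 14 lower, beside 2976 and 2536 of all genes. Only the leukemia arrays showed pairing.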

Other observations

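The dHet pro-B arrays differed in sex-linked RNA. Xist, the RNA that silences an X chromosome, was at -5.96 on the first and 5.17 on the second, and the Y-linked Ddx3y at 1.56 and -6.14. These arrays therefore did not hold the same RNA.

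The first leukemia arrays, on slide 1, also differed from the second in these genes. Xist was -1.26 and -2.51 on the first arrays of 686 and 713, against -6.83 and -6.78 on the second arrays, and 3.59 and 4.48 on those of 760. Ddx3y was -3.13 and -6.34 on the arrays of 760, against 1.40 to 1.63 on those of 686 and 713, and Eif2s3y was -2.64 and -6.38 on those of 760. Whether RNA of other samples reached the arrays of slide 1, and its part in the slide 1 values and in the differences between mice, was not tested.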
